A study of Mus musculus with 8 samples.

Results

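The cytosolic ribosomal protein genes encode the protein subunits of the ribosome that works in the cytoplasm. They were taken by symbol: Rpl or Rps followed by a number and, in some, the letter a, together with Rplp0, Rplp1, Rplp2 and Rpsa. The rule used no measured value and found 75 of the 25815 genes in the table, 46 of the large subunit and 29 of the small subunit. Of these, 74 passed the filter on low counts. The remaining one, Rpl24, had 6, 12, 2, 11 and 3 counts in D50A 1 to 5, against 9, 7 and 8 counts in WT 1 to 3.

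The samples were total brains of mice 50 days old that carried the D50A mutation of Cstf2 (5 libraries, D50A 1 to 5) or were wild type (3 libraries, WT 1 to 3). Cstf2 is an X-linked gene whose product binds RNA downstream of the cleavage site when the 3′ end of an mRNA is formed, and D50A changes an aspartate to an alanine in that protein. Both genotypes were on a C57BL/6NCrl background after 4 generations of backcrossing and further breeding within the colony, and the labels name no treatment. Total brain mixes every brain cell type, and the labels used here give neither sex nor litter nor processing batch. Each library was numbered in the order of its accession, so the numbers pair no animals.

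Each ribosome holds one copy of nearly every ribosomal protein, and cells tune the set mainly together. Many of these mRNAs are short, abundant and begin with a run of pyrimidines, the 5′ terminal oligopyrimidine tract, through which the kinase mTOR controls their translation. In the brain the proteins are needed in the cell body and in dendrites and axons, where local translation takes place.

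Start sequences of some of the members named below are shown, with and without short pyrimidine motifs. Start windows hold 15 bases before and 15 bases from the transcript start in RefSeq (GRCm38.p6), with the pyrimidine letters CTTTC and CTTCC in capitals. Rpl13a, Rpl35 and Rps7 had a large excess in the library D50A 3, Rps15a had the lowest fold change without that library, and Rplp2 had a smaller excess in it. Rpl39 and Rps3, with a large excess, and Rpl6, with a small one, are shown as windows with neither motif.
Rpl13a start, chr7:45128731-45128760 (minus strand): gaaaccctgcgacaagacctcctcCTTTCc
Rpl35 start, chr2:39005117-39005146 (minus strand): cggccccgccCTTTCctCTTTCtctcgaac
Rps7 start, chr12:28635939-28635968 (minus strand): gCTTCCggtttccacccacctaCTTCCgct
Rps15a start, chr7:118116133-118116162 (minus strand): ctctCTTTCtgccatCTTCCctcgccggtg
Rplp2 start, chr7:141447636-141447665 (plus strand): tgcgtcagcgtCTTCCTTTCgccgccggac
Rpl39 start, chrX:37085208-37085237 (minus strand): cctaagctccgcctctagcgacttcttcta
Rps3 start, chr7:99483695-99483724 (minus strand): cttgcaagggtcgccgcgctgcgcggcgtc
Rpl6 start, chr5:121204486-121204515 (plus strand): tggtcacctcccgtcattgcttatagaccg
Of the 23 such windows read for named members, the 5 shown first held a motif and the other 18 did not. The RefSeq table held start windows for 55 of the 75 members, 65 windows in all, with several starts for some genes. In the 25 bases on each side of the start, CTTTC stood in 27.7% of member windows and in 6.75% of all 32851 windows. On the other strand, read as GAAAG, the shares were 4.62% and 6.1%. CTTCC stood in 26.2% of member windows against 10.6% of all windows, and read as GGAAG on the other strand in 20.0% against 12.1%. Either motif on the transcript strand stood in 44.6% against 16.5%. The motifs can overlap, as in the Rplp2 start. A match gives letters in a window and does not show a pyrimidine tract in use.

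Because Cstf2 acts where the poly(A) tail is added, the last 30 bases of annotated transcripts (GENCODE M21, mm10) are shown. They are given for members with a large or a small excess in D50A 3. The poly(A) signal letters AATAAA and ATTAAA, where found, are in capitals.
Rpl13a end, chr7:45125558-45125587 (minus strand): tgtgctAATAAAttatttgacttaagtgtg
Rps3 end, chr7:99477896-99477925 (minus strand): aagtgtgcaaccttcatctggttgATTAAA
Rps7 end, chr12:28630854-28630883 (minus strand): tccaacttctttctttgtaaacaactgtcc
Rpl29 end, chr9:106431538-106431567 (plus strand): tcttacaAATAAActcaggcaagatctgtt
Rpl6 end, chr5:121209212-121209241 (plus strand): caaatagaaaatgctgctgactatactgga
Of 26 such windows read for named members, 15 held AATAAA, 3 ATTAAA alone and 8 neither. A match gives letters near an annotated end and does not show a signal in use. In Rps3 the match stands at the very end of the annotated transcript. The last 40 bases held AATAAA in 54 of 75 members (72.0%), against 59.3% of the 18243 genes annotated with a protein-coding transcript. ATTAAA without AATAAA stood there in 9 of 75 members, against 13.4% of those genes. Among members with a large excess in D50A 3, the 30 bases held AATAAA in Rpl13a, ATTAAA in Rps3 and neither in Rps7, and among those with a small excess they held AATAAA in Rpl29 and neither in Rpl6.

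Libraries held 13675945 to 24802272 counts, the fewest in D50A 3. In that library mitochondrially encoded genes took 11.9% of counts, where each of the other 7 had 4.08% to 5.14%, and its TMM scaling factor was 0.79. Markers of red blood cells had sums of CPM (counts scaled to a common TMM library size) between 306 and 2363 in D50A and between 354 and 524 in WT, and all 5 were highest in D50A 3. Of 5 oligodendrocyte markers, 4 were highest and 1 lowest there. Their sums lay between 9354 and 19135 CPM in D50A and between 8528 and 9275 CPM in WT. Neuron markers gave sums between 3591 and 4009 CPM in D50A and between 3713 and 3822 CPM in WT. Of these 5 markers, 3 were highest and 2 lowest in D50A 3. Markers of astrocytes and of microglia were highest in D50A 3 for 3 of 5 genes each and lowest there for 1 each. Astrocyte sums lay between 1676 and 2808 CPM in D50A and between 1610.3 and 1662 CPM in WT. Microglia sums lay between 170.8 and 355 CPM in D50A and between 192 and 197 CPM in WT. Cerebellar granule cell markers came to 37.8 CPM in D50A 1 and between 485 and 692 CPM in D50A 2 to 5, against at most 35.1 CPM in any WT library, and pituitary markers to 847 CPM in WT 2 and at most 19.9 CPM elsewhere. Choroid plexus markers lay between 517 and 841 CPM in D50A and between 442 and 567 CPM in WT. Endothelial markers lay between 181 and 221 CPM in D50A and between 195 and 214 CPM in WT. In D50A 3, 2 choroid plexus markers were highest and 3 lowest, and 1 endothelial marker was highest and 2 lowest. In some library 1 granule cell and 3 pituitary markers were at 0, and no marker of the other lists. The part of these differences in the results below was not tested. Cstf2 itself had 65.8 CPM in D50A 3, between 105 and 129 CPM in the other D50A libraries and between 122 and 135 CPM in WT, and a missense change leaves its count unable to check the labels. No pair of libraries was identical.

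Ribosomal protein mRNAs stood far higher in 1 D50A library, D50A 3, and close to WT in the other 4. Counts on the members made up 1.23%, 1.24%, 7.23%, 1.503% and 1.41% of all counts in D50A 1 to 5, against 1.17%, 1.37% and 1.31% in WT 1 to 3. The D50A mean was 2.52% ± 2.63 (SD, n = 5), against 1.28% ± 0.103 in WT (SD, n = 3), and 1.35% ± 0.135 (SD, n = 4) in D50A without D50A 3. The median member stood at 147, 146, 1054, 173 and 166.5 CPM in D50A 1 to 5, against 146, 162 and 157 CPM in WT 1 to 3. Without D50A 3 the ranges of the 2 genotypes overlapped on both measures. In bulk RNA, fewer cells of a type and less RNA per cell cannot be told apart.

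**Figure D1:**
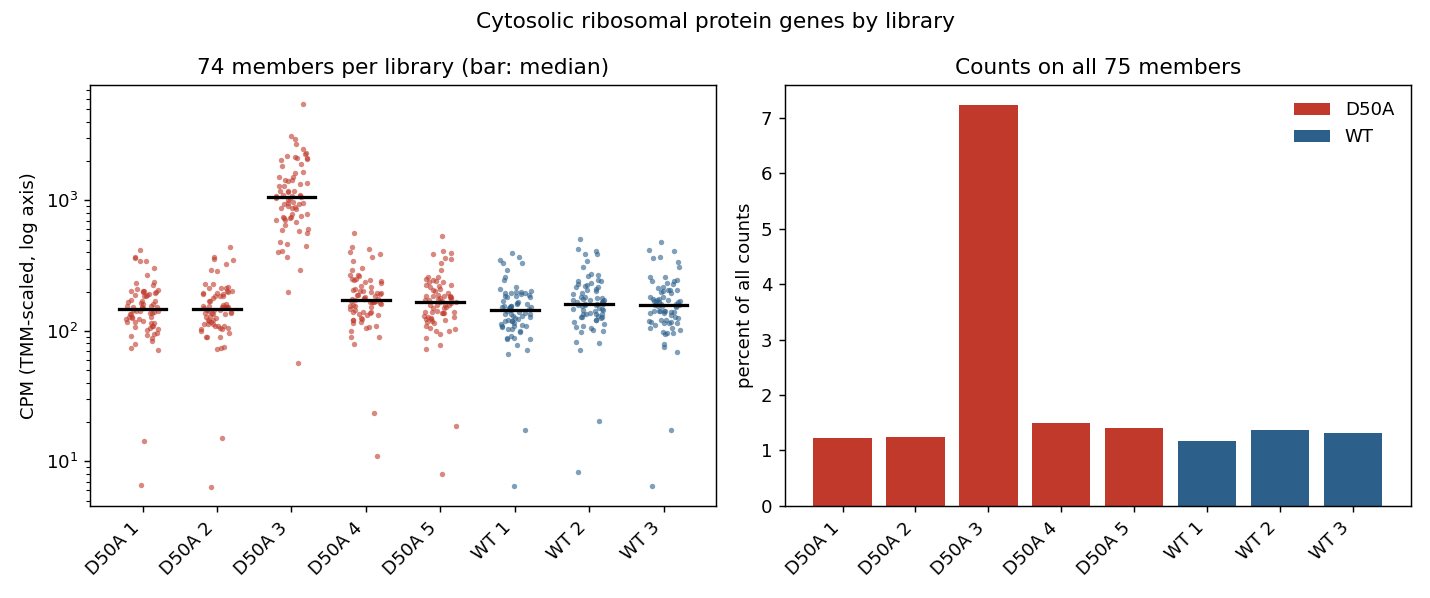
Level of the 74 members tested in each library, as TMM-scaled CPM on a log axis with 1 point per gene and a bar at the median (left), and the percent of all counts on the 75 members (right), with D50A in red and WT in blue. The D50A 3 median is 1054 CPM, and the other libraries lie between 146 and 173 CPM.

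Every tested member was highest in D50A 3. The 74 members exceeded all 7 other libraries there, which held for 40% of all tested genes. All 74 were at least 2-fold above the mean of the other D50A libraries (19.5% of all genes), and 70 at least 4-fold (4.13%). The excess ran from 3.35-fold for Rpl29 to 11.9-fold for Rps14, with a median of 6.998-fold and quartiles of 5.03 and 8.64. A single library has no replicate, so these folds describe D50A 3 and not the genotype.

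**Figure D2:**
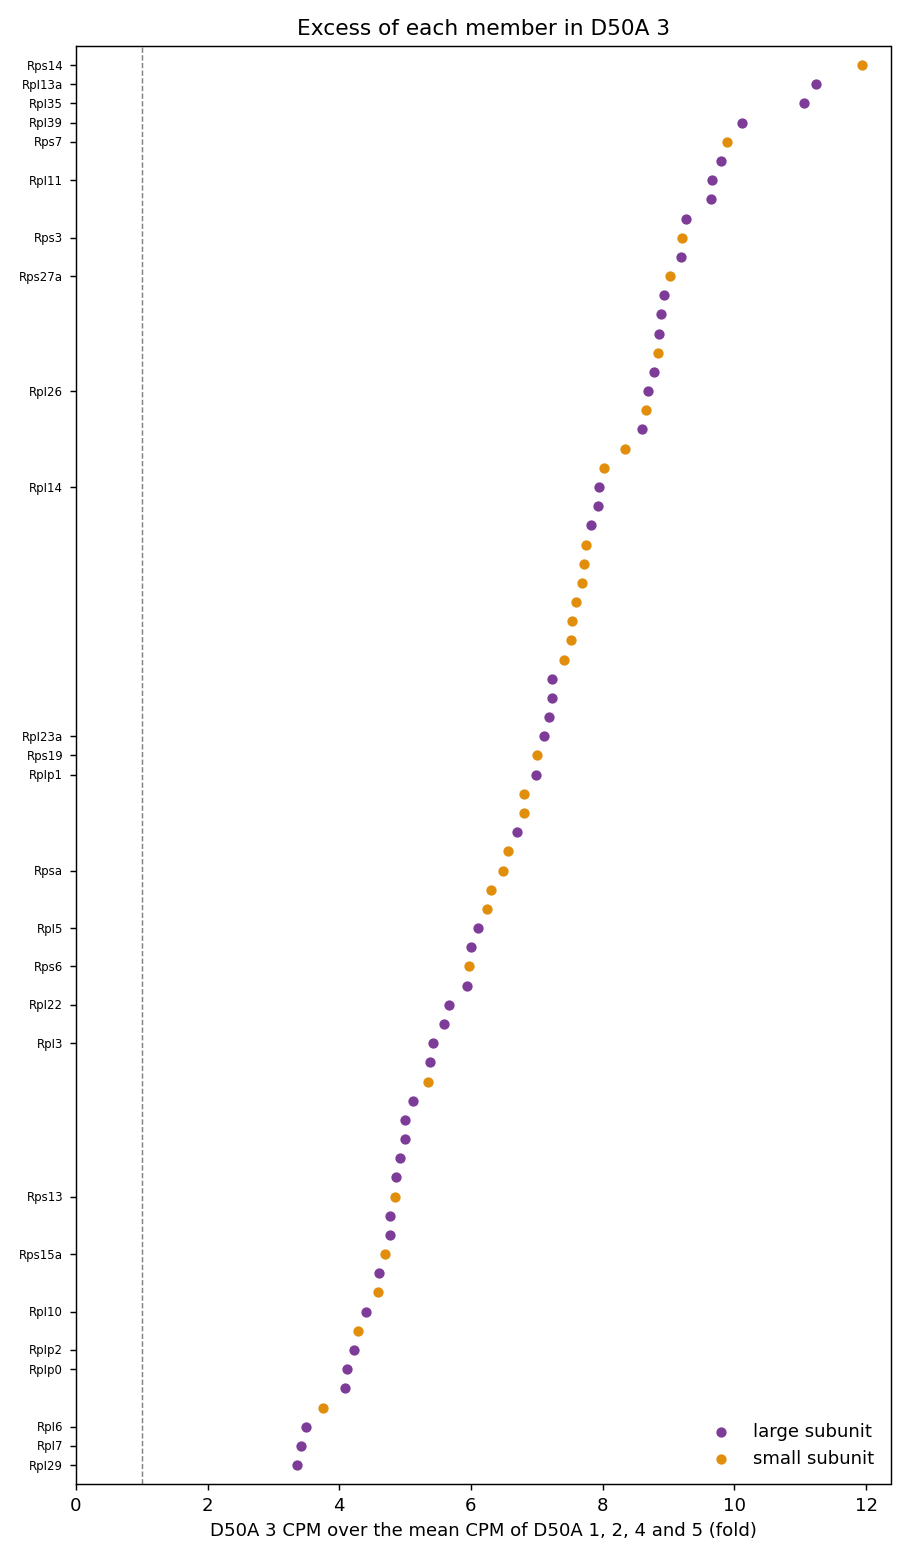
Fold of D50A 3 over the mean CPM of D50A 1, 2, 4 and 5 for each of the 74 members, ordered by size, with large subunit genes in purple and small subunit genes in orange and a dashed line at no difference; only genes named in the text are labelled. All points lie above 3, from Rpl29 at the bottom to Rps14 at the top.

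Among genes of the ribosomal stalk, the flexible arm of the large subunit that recruits translation factors, the excess differed between partners. Rplp0, the stalk base, had 183, 179, 764, 196 and 185 CPM in D50A 1 to 5, against 167.6, 191 and 181 CPM in WT 1 to 3. Its acidic partner Rplp1 had 359.8, 367, 2724, 435 and 395 CPM in D50A 1 to 5, against 351, 426 and 419 CPM in WT 1 to 3. The second acidic partner, Rplp2, had 114, 103, 462, 115 and 104 CPM in D50A 1 to 5, against 112, 109.7 and 105 CPM in WT 1 to 3. D50A 3 was therefore 6.99-fold above the other D50A libraries for Rplp1 but 4.11-fold for Rplp0 and 4.22-fold for Rplp2, and the other 4 D50A libraries overlapped WT for all 3 genes.

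Large subunit genes covered nearly the whole range of excess. Rpl3, which lies near the catalytic centre, had 369.6, 355, 2115, 424 and 412 CPM in D50A 1 to 5, against 367, 408 and 407 CPM in WT 1 to 3. For Rpl5, one of a pair of proteins that carry a small rRNA into the large subunit, the values were 154, 155, 1034, 187 and 182 CPM in D50A 1 to 5, against 150.3, 164 and 172.02 CPM in WT 1 to 3. Its partner Rpl11 had 202, 193, 2089, 247 and 224 CPM in D50A 1 to 5, against 184, 223 and 215 CPM in WT 1 to 3. The 2 partners thus differed in D50A 3, with 9.66-fold for Rpl11 and 6.10-fold for Rpl5. Counts of Rpl10, a late-joining protein at the subunit interface encoded on the X chromosome, came to 199, 185, 877, 209 and 204 CPM in D50A 1 to 5, against 195, 203 and 199 CPM in WT 1 to 3. Rpl39, a short X-linked protein that lines the exit tunnel, reached 83.1, 90.4, 1049.6, 124 and 117 CPM in D50A 1 to 5, against 86.9, 107 and 105 CPM in WT 1 to 3. Their excess was 4.40-fold for Rpl10 and 10.1-fold for Rpl39. Rpl22, which mice can live without and which acts in T cell development, had 88.8, 90.2, 563, 109 and 109.7 CPM in D50A 1 to 5, against 85.97, 99.4 and 97.1 CPM in WT 1 to 3. Rpl13a, a large subunit protein also known in human myeloid cells as part of a complex that silences inflammatory mRNAs, had 413, 436, 5463, 559 and 536 CPM in D50A 1 to 5, against 393, 505 and 478 CPM in WT 1 to 3. In each of these genes D50A 1, 2, 4 and 5 overlapped WT.

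The largest excess of all was in a small subunit gene, Rps14. The large subunit genes Rpl13a (11.2-fold) and Rpl35 (11.1-fold) came next. Rps14, a protein of the platform of the small subunit whose gene is lost in a human myelodysplastic syndrome, had 224, 230.0, 3129.8, 303 and 292 CPM in D50A 1 to 5, against 209, 272 and 259.9 CPM in WT 1 to 3. Rps3, which sits at the mRNA entry site, had 267, 286, 2932, 365 and 356 CPM in D50A 1 to 5, against 256, 307 and 307 CPM in WT 1 to 3. The ubiquitin fusion gene Rps27a, whose product is cut into ubiquitin and a ribosomal protein, had 140.1, 157, 1499, 185 and 182 CPM in D50A 1 to 5, against 139, 161 and 153 CPM in WT 1 to 3. D50A 3 stood 11.9-fold, 9.20-fold and 9.03-fold above the other D50A libraries for these genes. Rps6, the substrate of S6 kinase, had 142, 136, 873, 155 and 152 CPM in D50A 1 to 5, against 144, 145 and 139 CPM in WT 1 to 3. Rpsa, known also as the laminin receptor, had 343, 325, 2291, 386 and 359 CPM in D50A 1 to 5, against 331, 387 and 370.0 CPM in WT 1 to 3. For Rps19, the gene most often mutated in human Diamond-Blackfan anaemia, the values were 128, 117, 892, 137 and 127 CPM in D50A 1 to 5, against 126, 142 and 137 CPM in WT 1 to 3. These 3 had a middle excess of 5.97-fold, 6.49-fold and 7.003-fold, and D50A 1, 2, 4 and 5 overlapped WT for all 6 genes.

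**Figure D3:**
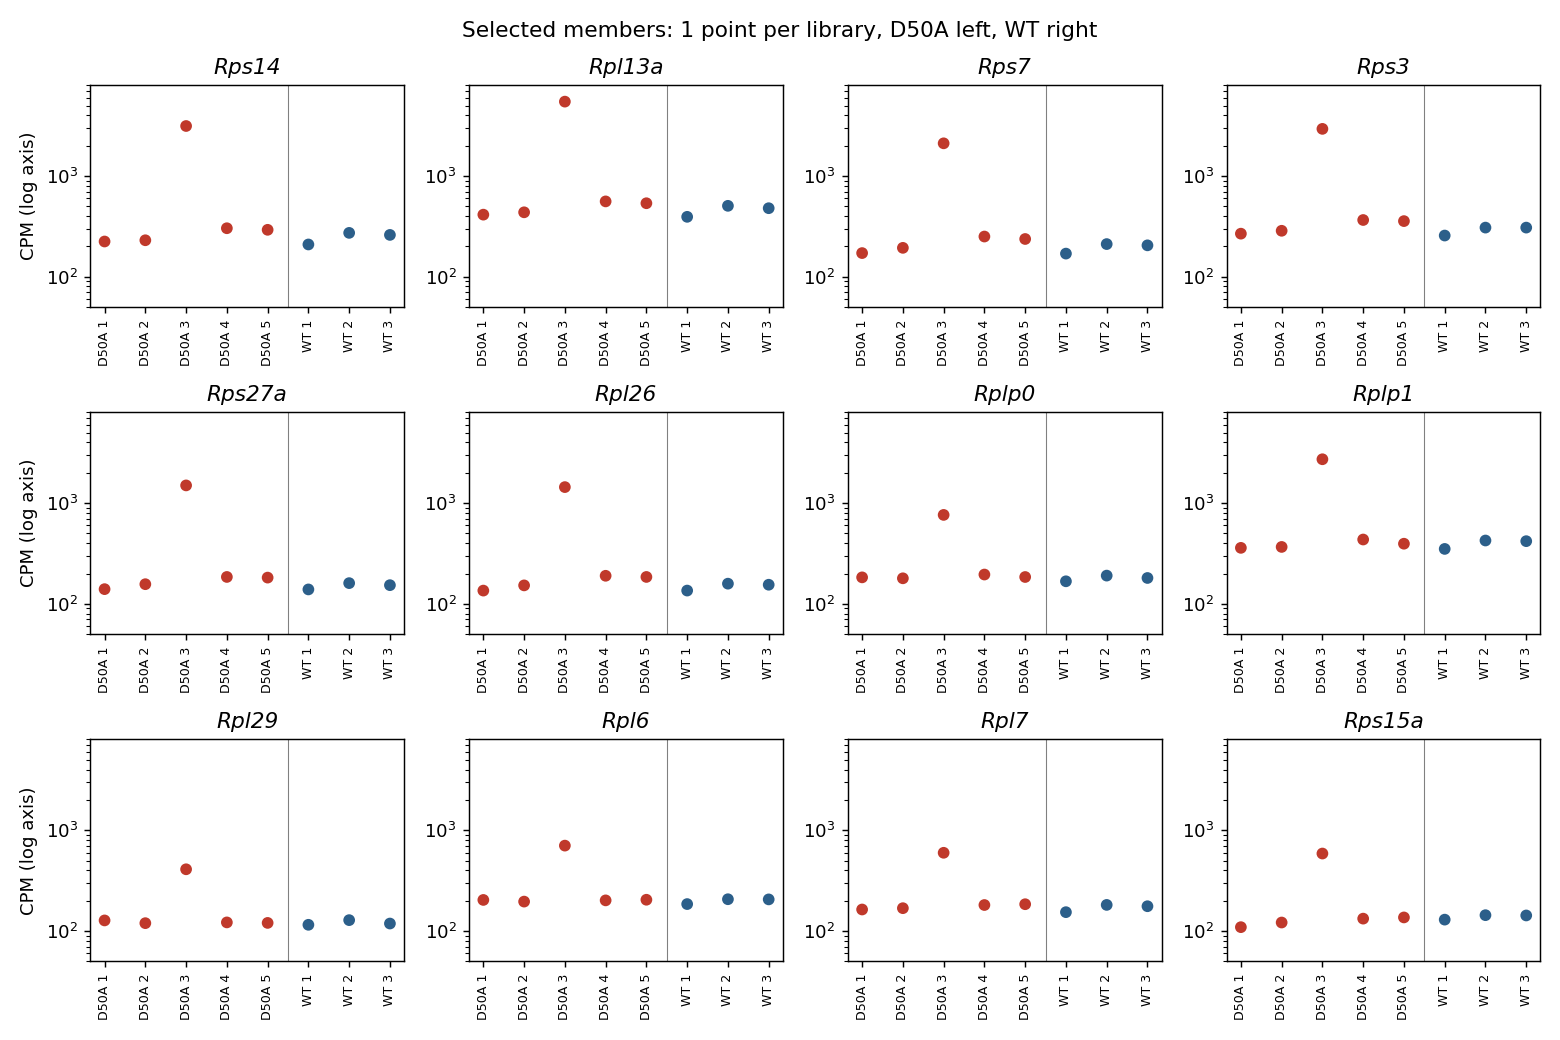
TMM-scaled CPM on a log axis for 12 members, with 1 point per library, D50A in red on the left of the line and WT in blue on the right. D50A 3 is the one point that stands apart in each panel, by 11.9-fold in Rps14 and 3.35-fold in Rpl29, and the other points overlap between genotypes.

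The smallest excess belonged to 3 RNA-binding proteins of the large subunit. Rpl29 had 127, 119.8, 410.2, 122 and 120.4 CPM in D50A 1 to 5, against 115, 128 and 119 CPM in WT 1 to 3. Rpl6 had 204, 196, 704, 202 and 204 CPM in D50A 1 to 5, against 185, 207 and 206 CPM in WT 1 to 3. Rpl7 had 164, 168.6, 598, 181 and 185 CPM in D50A 1 to 5, against 154, 182 and 176 CPM in WT 1 to 3. Their D50A 3 values were 3.35, 3.50 and 3.43 times the mean of the other D50A libraries, still above every other library.

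With all 8 libraries, no member passed the genotype test. The comparison asks whether the mutation changes mRNA levels in the brain. In edgeR's quasi-likelihood test with Benjamini-Hochberg adjustment over 16810 genes and a threshold of 0.05, 0 of 74 members were called, and the background was 0%. At an unadjusted p under 0.05 stood 0 members and 420 genes (2.5%). All 74 log2 fold changes were positive, where 48.6% of all genes were positive and 51.4% negative, with a median of 1.18 (range 0.57 to 1.76) against -0.012 over all genes. The median was 1.09 for large and 1.20 for small subunit genes. The SEs ran from 0.46 to 1.02, and the adjusted p was 0.837 for every member.

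Named genes show the same. Rps14 had a log2 fold change of 1.76 (SE 1.02) and the smallest unadjusted p, 0.122, and Rps7, a small subunit protein, had 1.60 (SE 0.94), from 171.6, 193, 2107, 250.5 and 237 CPM in D50A 1 to 5, against 169.6, 211 and 205 CPM in WT 1 to 3. Rpl13a had 1.69 (SE 0.99), Rps27a 1.52 (SE 0.89) and Rps3 1.54 (SE 0.90). At the low end stood Rpl29 with 0.57 (SE 0.46), Rpl6 with 0.60 (SE 0.48) and Rpl7 with 0.60 (SE 0.47). None of the 8 genes passed the test. DESeq2, as another tool, called 0 members but gave no adjusted p for 66 of the 74. Without its outlier cut-off it called 0, with 2 at an unadjusted p under 0.05. In limma-voom with quality weights the median log2 fold change of members was 0.077, and 0 were called.

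Without D50A 3, the estimated log2 fold changes of all tested members were at most 0.18 in size. In edgeR's quasi-likelihood test over 16754 genes, 0 of 74 were called (background 0%), and 0 had an unadjusted p under 0.05, against 1574 genes (9.39%). The count over all genes depended on the tool, with 120 higher and 41 lower in D50A by DESeq2, 309 and 200 by limma-voom with quality weights and 71 and 14 by edgeR with no filter, and in each 0 members were called. The median log2 fold change was 0.051 (range -0.14 to 0.18), against -0.0017 over all genes, with SEs from 0.063 to 0.199. Positive values numbered 63 and negative values 11, where 49.4% of all genes were positive and 50.6% negative. This split rested on single libraries: it was 36 positive and 38 negative without D50A 4 as well, and 30 positive and 45 negative without WT 1, where Rpl24 was tested too. The adjusted p ranged from 0.614 to 0.996. No member had all 4 D50A libraries above all WT libraries (4.79% of all genes did) or all below them (5.8%).

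**Figure D4:**
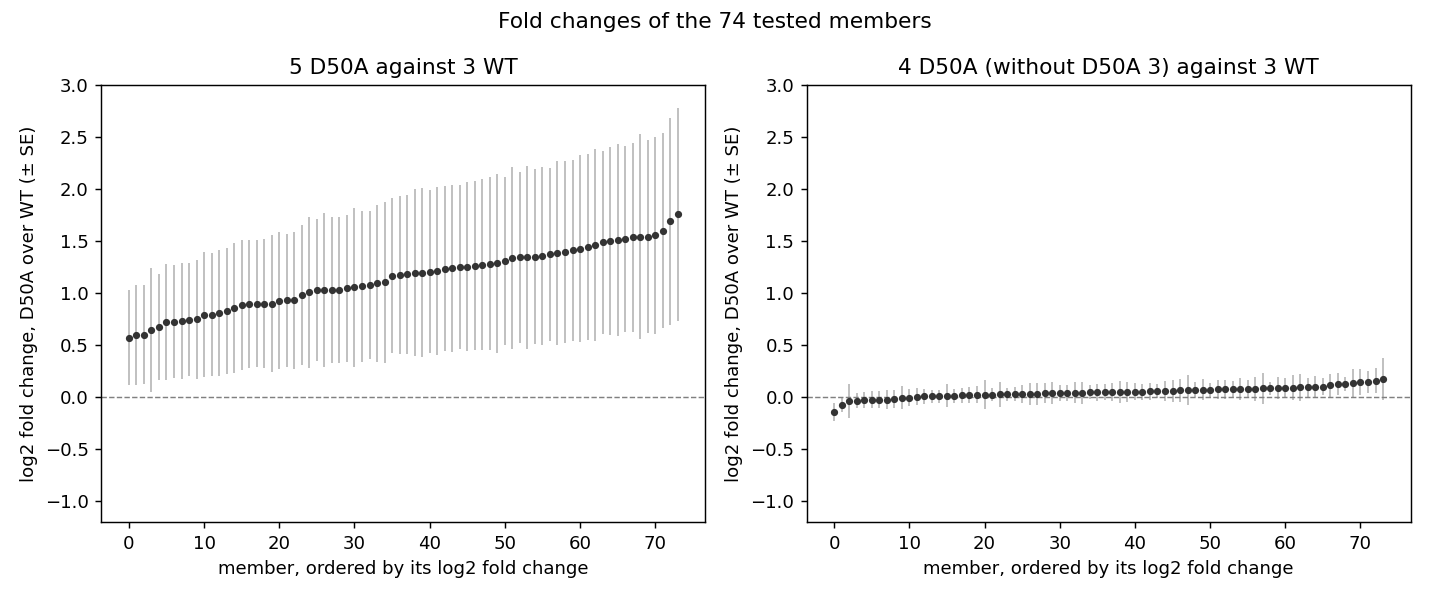
Log2 fold change, D50A over WT, of each of the 74 members with its SE, in order of size, from all 8 libraries (left) and without D50A 3 (right). On the left all points lie between 0.57 and 1.76 with wide errors, and on the right between -0.14 and 0.18.

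In that fit the smallest unadjusted p belonged to Rpl14, a large subunit protein. It had 151 to 170.6 CPM in D50A 1, 2, 4 and 5 (mean 162 ± 8.72, SD, n = 4) and 1291 CPM in D50A 3, against 151, 157 and 141 CPM in WT 1 to 3. Those 4 D50A libraries overlapped WT. Without D50A 3 its log2 fold change was 0.13 (SE 0.07), with an unadjusted p of 0.0927 and an adjusted p of 0.614 in edgeR's quasi-likelihood test. Rps15a, a small subunit protein, had the lowest fold change, -0.14 (SE 0.088), from 109, 122, 588, 133 and 137 CPM in D50A 1 to 5, against 129.8, 144 and 143 CPM in WT 1 to 3. WT stood slightly higher for Rps15a, with overlapping libraries. Rps13, which helps join the subunits, had 73.4, 74.99, 371, 79.7 and 77.3 CPM in D50A 1 to 5, against 71.5, 71.2 and 74.7 CPM in WT 1 to 3, a log2 fold change of 0.086 (SE 0.063). Rpl26, at the mouth of the exit tunnel, had 135, 153, 1442, 190.1 and 185 CPM in D50A 1 to 5, against 136, 159 and 155 CPM in WT 1 to 3, a log2 fold change of 0.16 (SE 0.12). For Rps27a it was 0.15 (SE 0.11) and for Rps19 -0.071 (SE 0.075). None of these passed the test.

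The members with the lowest counts gave the least certain fold changes. Rpl23a, a docking site for the signal recognition particle near the tunnel exit, had 6.58, 6.39, 56.9, 11.02 and 8.01 CPM in D50A 1 to 5, against 6.45, 8.35 and 6.47 CPM in WT 1 to 3, a log2 fold change without D50A 3 of 0.18 (SE 0.20). Rpl35, its neighbour at the tunnel exit, had 14.4, 15.2, 198, 23.5 and 18.7 CPM in D50A 1 to 5, against 17.4, 20.6 and 17.5 CPM in WT 1 to 3, a log2 fold change of -0.036 (SE 0.16). Of the windows of 75 bases along each member's representative transcript, a median of 47.9% were also found in other annotated genes, from 0% in Rps3 to 98.5% in Rps27, and 80.9% in Rpl24. Reads from such windows cannot be assigned to one gene, and no source used here says how they were counted. In GENCODE M21, Rpl24 also overlaps Gm28037. Levels of members with many such windows are therefore uncertain.

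In the other 7 libraries most members shared their highest library, and no member separated the genotypes. Over all genes, 4.79% had all 4 of these D50A libraries above WT and 5.8% all below. D50A 4 was the highest of these libraries for 61 of 74 members, WT 2 for 7 and D50A 5 for 6. WT 1 was the lowest for 39, D50A 2 for 19, D50A 1 for 9, WT 3 for 6 and WT 2 for 1. The order of these libraries was not counted over all genes, so it is not shown to be particular to members. The highest library exceeded the lowest by 1.09-fold in Rpl10a to 1.72-fold in Rpl23a, with a median of 1.24-fold. The percent of counts on mitochondrially encoded genes was 5.14% in D50A 4, 4.19% in WT 1 and lowest in D50A 1, at 4.08%. Granule cell marker sums were 692 CPM in D50A 4 and 33.6 CPM in WT 1. The part of either measure was not tested. Members with a larger excess in D50A 3 tended to have larger ratios of other libraries over WT 1 or D50A 1. Over the 74 members, Pearson's r between log2 ratios from library pairs with no shared library, such as D50A 3 over D50A 2 and WT 2 over WT 1, was 0.46 to 0.67 in the 5 sets of pairs computed. It is a description across genes, which share length, base composition and their libraries' depth. In every set the second ratio was taken over WT 1 or D50A 1, and ratios over other libraries were not computed.

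Leaving out D50A 1 as well changed the calls over all genes and not those of members. The remaining D50A libraries then all had high cerebellar granule cell marker sums (485 to 692 CPM) and the WT libraries low ones (33.6 to 35.1 CPM), so that genotype and this marker sum cannot be told apart in that fit. In that edgeR fit, 558 genes (3.36%) were higher and 507 (3.06%) lower in D50A, 6.42% of 16591 in all, and 0 of 74 members were called in either direction. At an unadjusted p under 0.05 there were 6 members, against 22.2% of all genes. Rps27a had a log2 fold change of 0.23 (SE 0.074) with an adjusted p of 0.0829 in edgeR's quasi-likelihood test, and Rpl26 one of 0.25 with an adjusted p of 0.0873.

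The mix of ribosomal protein mRNAs differed in D50A 3 as well as their sum. As a share of all member counts, each member deviated from its WT mean with an SD of 0.467 log2 units in D50A 3, against 0.065 to 0.112 in the other D50A libraries and 0.065 to 0.099 in WT. The 10 members with the most counts took 30.3% of member counts in D50A 3, against 25.9% to 26.9% in each of the other 7 libraries. Large subunit genes took 59.2% in D50A 3, 61.0% to 61.8% in the other D50A libraries and 61.3% to 61.5% in WT. When libraries were scaled to the summed member counts, a fit added after seeing the data, 0 of 74 members were called by edgeR with all 8 libraries (background 0%) and 0 without D50A 3 (0.0895%).

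Shorter coding length went with a larger excess among other genes, and member medians also fell over the 3 shortest classes. In protein-coding genes outside the members, the median fold of D50A 3 over the other D50A libraries was 2.84 for coding lengths up to 300 bases, 2.08 above 300 and up to 600, 1.57 above 600 and up to 900, 1.20 above 900 and up to 1200, and 0.673 above 1200. Members of the first 3 classes had medians of 7.58 (9 genes), 7.21 (45 genes) and 5.98 (17 genes), each above that of other genes of like length. Over the 74 members, Spearman's rho with the fold was -0.18 for coding length, -0.11 for 3′ UTR length, 0.05 for GC content, 0.12 for the share of windows found elsewhere and 0.15 for level, given as a description. No rho was computed for other genes, and the 2 longest classes held only 1 and 2 members. The strength of the trend in members and in other genes therefore cannot be compared.

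**Figure D5:**
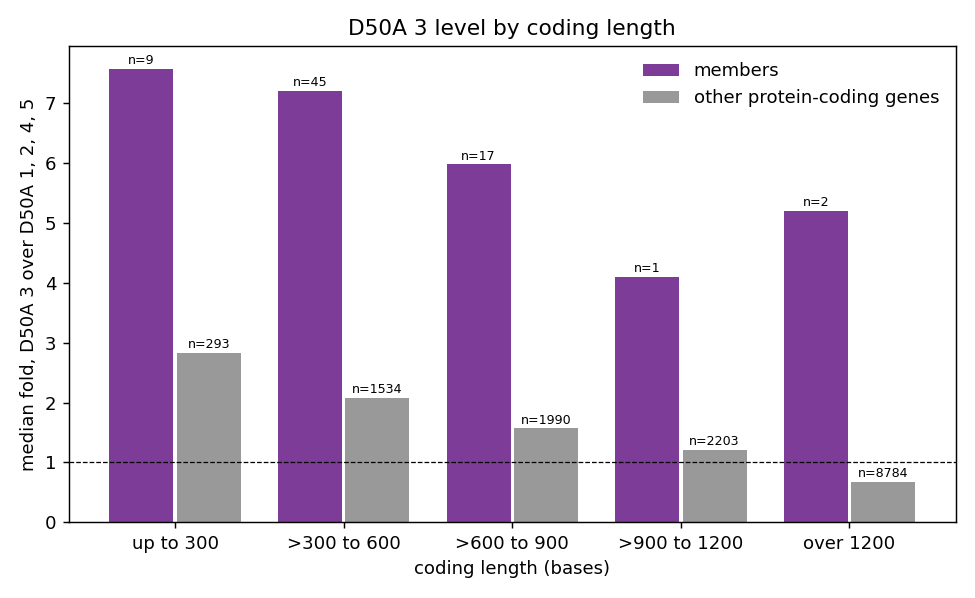
Median fold of D50A 3 over the mean of D50A 1, 2, 4 and 5 by coding length, for members (purple) and other protein-coding genes (grey), with the number of genes above each bar and a dashed line at 1. Members stand at 7.58 in the shortest class, where other genes have 2.84, and the last 2 member bars hold 1 and 2 genes.

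Genes related to the members differed in how far they shared the excess in D50A 3. The 6 ribosomal protein genes whose symbols fall outside the rule, among them Rps4x, Rps3a1, Fau and the scaffold gene Gnb2l1, had a median of 4.93-fold and were all highest there. Fau, which encodes a ubiquitin-like fusion with a small subunit protein, had 151, 142, 1188, 173 and 159.7 CPM in D50A 1 to 5, against 148, 165.9 and 151 CPM in WT 1 to 3. Of 6 tested paralogs, all were highest in D50A 3 (median 3.18-fold), led by Rpl22l1 with 60.2, 64.2, 686, 81.8 and 85.6 CPM in D50A 1 to 5, against 61.8, 65.6 and 73.4 CPM in WT 1 to 3. Of 76 mitochondrial ribosomal protein genes, whose products build the ribosome inside mitochondria, 71 were highest in D50A 3, with a median of 3.11-fold. The 38 tested rows of ribosomal protein pseudogenes, of 162 in the table, had a median of 7.48-fold, and reads can match both a pseudogene and its parent gene. Summed over all rows they gave 62.6, 106, 803, 134 and 123 CPM in D50A 1 to 5, against 61.1, 106 and 85.3 CPM in WT 1 to 3. The excess was thus not limited to cytosolic ribosomal protein genes.

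Regulators and assembly factors had smaller medians, but their genes differed. Translation factors and other mRNAs with a 5′ oligopyrimidine tract had a median of 1.88-fold in D50A 3 (19 genes, 16 highest and 1 lowest there). Tpt1 and Eif3h on this list stood far higher in D50A 3. Tpt1 had 332, 345, 2738, 422 and 375 CPM in D50A 1 to 5, against 322, 369 and 351 CPM in WT 1 to 3. Eif3h had 103, 107, 723, 130 and 122 CPM in D50A 1 to 5, against 94.7, 114 and 110 CPM in WT 1 to 3. The 39 ribosome biogenesis factors had 1.03-fold (15 highest, 16 lowest) and the 6 host genes of small nucleolar RNAs 1.94-fold (4 highest, 2 lowest). The 18 genes of mTOR and S6 kinase signalling had 0.473-fold (6 highest, 10 lowest). Over all 16810 tested genes the median was 0.93-fold, with 6732 highest and 7459 lowest. Protein-coding genes outside the members with coding lengths over 1200 bases had a median of 0.673-fold. The lists were not compared with genes of like length, and the part of coding length in their medians was not tested. In edgeR's quasi-likelihood test none of the genes on these 7 lists and the pseudogene rows was called in either direction with all 8 libraries (background 0%) or without D50A 3 (0%). Median log2 fold changes without D50A 3 were 0.054 for the genes outside the rule, 0.064 for paralogs, 0.074 for mitochondrial ribosomal proteins, 0.38 for pseudogene rows, 0.049 for translation factors, 0.011 for biogenesis factors, 0.035 for host genes and -0.036 for mTOR signalling. At an unadjusted p under 0.05 in that fit stood 4 of 76 mitochondrial ribosomal protein genes, 2 of 36 pseudogene rows and 1 gene each of the translation factor, biogenesis and mTOR lists, against 9.39% of all genes. One was Hnrnpa1, an RNA-binding protein of splicing, with 192, 183, 173, 171.1 and 179 CPM in D50A 1 to 5, against 231, 224 and 232 CPM in WT 1 to 3; its log2 fold change without D50A 3 was -0.33 (SE 0.058), with an adjusted p of 0.184 in edgeR's quasi-likelihood test. Another was the ribosomal S6 kinase Rps6ka1, with 15.4, 23.7, 14.6, 28.3 and 25.96 CPM in D50A 1 to 5, against 12.8, 13.2 and 11.5 CPM in WT 1 to 3 and a log2 fold change of 0.91 (SE 0.19) with an adjusted p of 0.191 in the same edgeR test. All 5 D50A libraries lay below WT for Hnrnpa1 (4.24% of all genes did) and above WT for Rps6ka1 (3.22%).

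Members lay on 19 chromosomes, with 14 on chromosome 7. Of the 3 on the X chromosome with Cstf2, Rpl36a, named here for its position after its values were seen, lies nearest, at chrX:134585654-134588062 (mm10), 499 kb from Cstf2. It had 71.9, 74.02, 745, 90.1 and 88.2 CPM in D50A 1 to 5, against 66.1, 81.4 and 78.9 CPM in WT 1 to 3. Its excess in D50A 3 was 9.19-fold, within the range of the other members, and without D50A 3 its genotypes overlapped.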

How the data were processed

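Poly(A)+ RNA from total brain was sequenced for 5 D50A and 3 WT mice after library preparation with an NEBNext Ultra kit, per the labels' protocols. One table of 25815 genes holds the counts, which the authors deposited as whole reads without normalization. CASAVA 1.8, STAR 2.5, HTSeq 0.6.1, DESeq2 2 and the build mm10 are named, per the submitters' processing notes. No source used here gives the annotation release, the strand setting or the handling of reads with several matches.

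Groups came from the genotype labels. The members, lists and tests were chosen with earlier results of these data known. Counts were tested with edgeR 4.0.16 (quasi-likelihood, filterByExpr, TMM scaling, Benjamini-Hochberg over all tested genes, threshold 0.05) in R 4.3.3, with all 8 libraries and without D50A 3. The labels name no batch, so p-values measure the spread between these libraries, which may be in part technical. Named genes were the 5 members with the smallest unadjusted p and the 3 highest and 3 lowest log2 fold changes of each fit, the 3 with the highest and lowest mean CPM, 15 genes chosen by role, and from each related list up to 3 genes with the smallest unadjusted p. Alternatives were DESeq2 1.42.0, limma-voom (limma 3.58.1) with quality weights, other scaling and filters, a threshold of 0.1 and each library left out. DESeq2 without its Cook's cut-off and scaling to the members' sum were added after seeing the data. Gene models came from GENCODE M21, with 25484 of the 25815 IDs matched, and start sequences from RefSeq (GRCm38.p6). The scripts were tested on simulated counts.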

Additional observations from a re-analysis of the deposited data

Results flagged for a closer look

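Within the 5 D50A libraries, D50A 3 stood above the others by a gap that took most of the range of the group, for the share of counts on members and for every named member tested. Chance flags about 1 in 20 groups by this measure. That rate does not apply here, because earlier results of these data had already shown D50A 3 apart. All 74 tested members were flagged high in the same library, so they are not independent. The gap to the next library, divided by the range, was 0.955 for the percent of counts on members. Among large subunit genes it was 0.908 for Rpl23a, 0.951 for Rpl35, 0.952 for Rpl7, 0.956 for Rpl22, 0.957 for Rpl39, 0.958 for Rpl26, 0.961 for Rpl3, 0.963 for Rpl5, 0.966 for Rpl10, 0.967 for Rplp2, 0.968 for Rplp1, 0.971 for Rpl13a, 0.972 for Rpl11 and Rplp0, 0.973 for Rpl29, and 0.983 for Rpl14 and Rpl6. Among small subunit genes it was 0.943 for Rps15a, 0.959 for Rps7, 0.963 for Rps3, 0.967 for Rps27a, 0.969 for Rpsa, 0.973 for Rps14, 0.974 for Rps6, 0.975 for Rps19 and 0.979 for Rps13.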

How the results depend on the processing

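Under every alternative run, 0 members passed the threshold in the fit with all 8 libraries and in the fit without D50A 3. With all 8 libraries, the median log2 fold change of members was 0.97 with library totals, 0.077 in limma-voom with quality weights (315 genes higher and 202 lower in D50A, 0 of them members), and 0.051 to 1.40 with each library left out, the lowest without D50A 3. DESeq2 called 34 genes higher and 6 lower, 0 of them members, but 66 of 74 members had no adjusted p there and could not be called. Without its Cook's cut-off all 74 had an adjusted p, and 0 were called. Without D50A 3, leaving out 1 more library gave medians of -0.0083 to 0.10, negative without D50A 4 or WT 1. There the sign of Rpl35 turned, to 0.0025 in limma-voom and to between -0.19 and 0.063 with a library left out, and that of Rpl23a lay between -0.014 and 0.32, negative without D50A 4. The cause was not tested. No paired analysis was possible because the labels give no replicate numbers that pair mice. Rpl24, Rpl23a and Rpl35 had low counts and 80.9%, 81.7% and 89.2% of their windows shared with other annotated genes, and 36 of 75 members had over 50% shared. The part of depth and of shared reads was not tested.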
